A study of Homo sapiens with 6 samples.

Results

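The expression of 38 genes that run mitosis was compared between C4-2B, a standard line of castration resistant prostate cancer, and its subclone RC4-2B, which resists cabazitaxel (CBZ). The genes were taken from a list of spindle checkpoint, kinetochore, anaphase and cytokinesis genes by symbol, and all 38 were found among the 58735 genes of the deposited tables. RC4-2B had been produced by cycles of 72 h in CBZ and 1 week of recovery, with the drug raised from 0.1 nM to 20 nM over 4 months, and stands for 1 selection of 1 line. The parental C4-2B line had no such selection, and no drug is named for the cells of either line at the time of RNA isolation. Both lines are human prostate cells that the labels place in RPMI-1640 with 10% FBS, and each was sequenced as 3 biological replicates.

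CBZ is a taxane, a drug that binds tubulin and keeps microtubules from depolymerizing, so that chromosomes cannot be attached and pulled apart in the normal way. Kinetochores, the protein plates on each centromere, catch the spindle microtubules, and as long as some remain unattached the spindle checkpoint holds back CDC20, the activator of the anaphase promoting complex (APC/C). Once released, the APC/C marks securin and cyclin B for destruction, separase opens the cohesin rings that tie sister chromatids, and the cell divides. Transcripts of most of these genes are known to accumulate in the G2 phase and in mitosis, through repressors and activators that work through CCAAT boxes and the cell cycle genes homology region (CHR).

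The promoters of 8 members are shown because they hold these elements or lack them, and because their transcripts recur in the results. Each is the run of 130 bases that ends just before the RefSeq transcript start (GRCh38.p14), written 5′ to 3′ on the strand of the gene, with capitals for the letters TTTGAA of the CHR and for CCAAT, read on either strand.
CCNB1: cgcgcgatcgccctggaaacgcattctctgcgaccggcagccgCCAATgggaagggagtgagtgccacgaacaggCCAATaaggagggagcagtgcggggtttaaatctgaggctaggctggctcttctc
CCNB2: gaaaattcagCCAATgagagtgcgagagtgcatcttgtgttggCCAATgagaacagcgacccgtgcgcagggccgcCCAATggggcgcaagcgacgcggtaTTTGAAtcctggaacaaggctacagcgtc
CDC20: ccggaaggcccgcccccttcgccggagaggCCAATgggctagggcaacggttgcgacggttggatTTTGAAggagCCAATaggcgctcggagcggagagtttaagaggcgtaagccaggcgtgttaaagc
PLK1: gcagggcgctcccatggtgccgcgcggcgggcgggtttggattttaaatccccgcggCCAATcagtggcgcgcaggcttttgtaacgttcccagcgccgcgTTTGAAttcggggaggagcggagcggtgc
BUB1B: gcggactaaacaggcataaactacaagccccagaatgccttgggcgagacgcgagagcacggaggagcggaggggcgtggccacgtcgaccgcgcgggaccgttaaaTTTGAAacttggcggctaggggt
MKI67: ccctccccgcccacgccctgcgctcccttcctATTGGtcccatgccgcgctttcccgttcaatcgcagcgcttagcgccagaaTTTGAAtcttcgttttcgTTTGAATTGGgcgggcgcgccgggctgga
NDC80: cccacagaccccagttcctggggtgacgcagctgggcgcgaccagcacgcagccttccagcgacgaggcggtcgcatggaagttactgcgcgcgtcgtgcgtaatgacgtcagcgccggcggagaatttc
CDC27: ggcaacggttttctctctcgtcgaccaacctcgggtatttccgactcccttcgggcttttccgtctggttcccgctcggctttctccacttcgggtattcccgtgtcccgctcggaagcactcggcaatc

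These regions were chr5:69167020-69167149 on the plus strand for CCNB1, chr15:59105016-59105145 on the plus strand for CCNB2, chr1:43358851-43358980 on the plus strand for CDC20 and chr16:23678759-23678888 on the plus strand for PLK1. They were chr15:40160939-40161068 on the plus strand for BUB1B, chr10:128126424-128126553 on the minus strand for MKI67, chr18:2571427-2571556 on the plus strand for NDC80 and chr17:47189296-47189425 on the minus strand for CDC27. In CCNB1 both CCAAT copies were on the strand of the gene, with first bases 87 and 55 bases before the start. In CCNB2 the last 3 copies of CCAAT began 120, 87 and 54 bases before the start, and TTTGAA followed at 29 bases before it. In MKI67 the second TTTGAA overlapped a reversed CCAAT. In NDC80 the only TTTGAA lay on the opposite strand across the start itself and so falls outside the printed bases, and in CDC27 the only CCAAT, reversed, lay 226 bases before the start.

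Promoter windows from 250 bases before to 50 after the start were found in RefSeq for 32 of the 38 members. TTTGAA was present on either strand in 20 of these 32 members and in 18.2% of 27305 genes. Within 50 bases of the start it was present in 17 of the 32 and in 5.77% of all genes, a window chosen after the positions had been seen. CCAAT was present in 25 of the 32 and in 39.7% of all genes, and 16 of the 32 held 2 or more copies, compared with 12.9% of all genes. A match of letters describes the sequence only, and the transcripts of members with and without the letters were not compared.

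The libraries held 15707134 to 18052517 counts each, and the members were counted well above the floor of 3 counts (0.170 to 0.188 CPM, CPM being counts over the library total scaled by TMM), with 207 to 7201 counts per library. RC4-2B replicate 2 stood apart from the other libraries across the genes with a mean of at least 10 CPM. The SD of its log2 difference from the other RC4-2B libraries was 0.594 and 0.518, compared with 0.216 between these and 0.133 to 0.192 within C4-2B. Values without it are given beside the fold changes. All 6 luminal prostate markers were at 10 CPM or more in every library (summed level 2156 to 2278 CPM in C4-2B and 2104 to 2378 CPM in RC4-2B). Of the basal markers KRT5 and TP63 were at or under the floor in every library, and the summed basal level was 0.239 to 0.968 CPM in C4-2B and 0.285 to 0.50 CPM in RC4-2B. Of the leukocyte, fibroblast and endothelial markers, 4 of 5 were at or under the floor and COL1A1 made up nearly all of the sum, 21.2 to 25.2 CPM in C4-2B and 22.2 to 36.6 CPM in RC4-2B.

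Per gene length, the mitotic genes ranked from abundant regulators of the APC/C and of CDK1 down to FBXW7. In C4-2B the highest was CDC20 at 112 ± 12.7 FPKM (fragments per unit of gene length and library depth, SD, n = 3), followed by cyclin B1 (CCNB1) at 106 ± 8.62 FPKM and the mitotic kinase CDK1 at 85.5 ± 0.387 FPKM. In RC4-2B the same 3 genes led, with CCNB1 at 104 ± 24.7 FPKM, CDC20 at 96.9 ± 20.8 FPKM and CDK1 at 81.6 ± 6.94 FPKM. Levels of neighbouring genes in this order mostly could not be told apart, since only 8 of the 37 neighbouring pairs in C4-2B, and 2 of 37 in RC4-2B, were separated in every library of the line.

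At the low end stood the long kinetochore proteins CENPE (6.63 ± 1.10 FPKM in C4-2B) and KNL1 (4.69 ± 0.710 FPKM), the checkpoint protein MAD1L1 (3.84 ± 0.162 FPKM) and FBXW7 (1.07 ± 0.0274 FPKM), the substrate receptor of an SCF ubiquitin ligase. The median member was at 19.9 FPKM in C4-2B and 23.0 FPKM in RC4-2B, above 84.2% and 86.9% of the tested genes. The order of the 38 genes was nearly the same in the lines, with a Spearman rho of 0.963 between the mean levels, a description over genes of the same libraries.

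**Figure D1:**
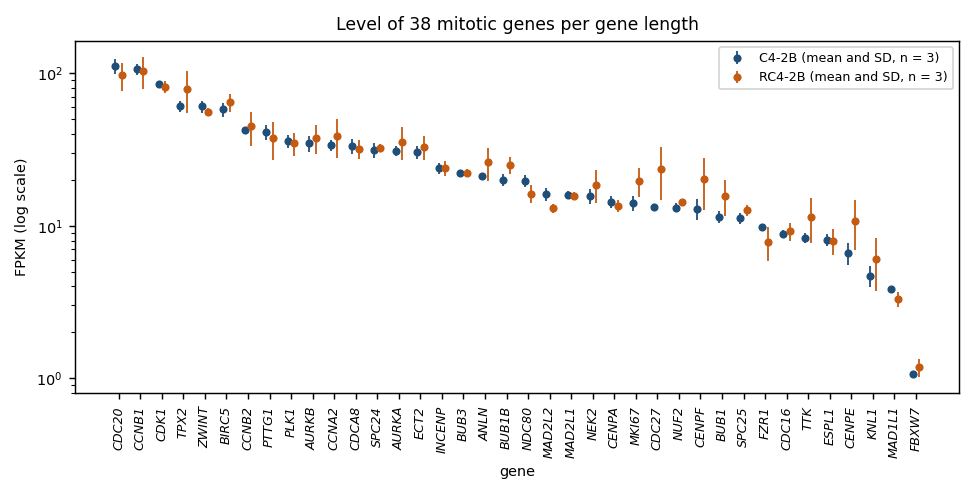
Deposited FPKM of the 38 mitotic genes on a log scale, ordered by their mean in C4-2B; points are means and bars are SD over 3 libraries of C4-2B (blue) and RC4-2B (orange). CDC20, CCNB1 and CDK1 lie highest and FBXW7 lies lowest in both lines.

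None of the 38 genes passed the test between the lines. With edgeR's quasi-likelihood test and a threshold of 0.05 on the Benjamini-Hochberg adjusted p over all 15054 tested genes, 0 members were higher and 0 were lower in RC4-2B, beside 1.98% of tested genes called, 1.08% higher and 0.903% lower. DESeq2, the tool of the study, called 1 member (CDC27) and 5.93% of its genes, and limma called 0 members on log2(FPKM + 1), with 0.868% of its genes, and 0 on log2(FPKM + 0.1), with 0.717%. Without a filter on low counts edgeR called 3 members (CDC27, CENPE and CENPF) and 4.29% of genes. At an unadjusted p under 0.05 in edgeR's test, 6 members were higher (CDC27, CENPE, MKI67, CENPF, BUB1 and BUB1B) and 2 were lower (MAD2L2 and NDC80), beside 12.0% and 9.42% of tested genes (21.4% in all). These p-values treat the libraries as separate biological replicates, as they are labelled.

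The fitted changes of the members were small. Their median log2 fold change, RC4-2B against C4-2B, was 0.07 and that of all tested genes was 0.01, with 22 members above and 16 below 0. The median absolute log2 fold change was 0.15 in the members and 0.26 in all tested genes. These sets differ in level, since the median member lay above 84.2% of tested genes in C4-2B and 86.9% in RC4-2B. Genes of matched level were not compared, so these medians do not set the members apart. The values ran from -0.36 for FZR1 to 0.80 for CDC27, 35 of the 38 were smaller than 0.5 in size, and for 35 of the 38 the 95% interval lay within 1 log2 unit of 0. The 3 libraries of each line did not overlap for 5 members that were higher in RC4-2B (BUB1B, CDC27, NUF2, CENPE and MKI67) and for 3 that were lower (MAD1L1, MAD2L2 and FZR1), while 17.0% and 17.1% of tested genes were separated in those directions. In such bulk RNA a different share of cells in mitosis and a different amount of RNA of a gene per mitotic cell cannot be told apart. The study reported a similar mitotic index in both lines without drug, counted in a separate experiment and not on these samples.

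**Figure D2:**
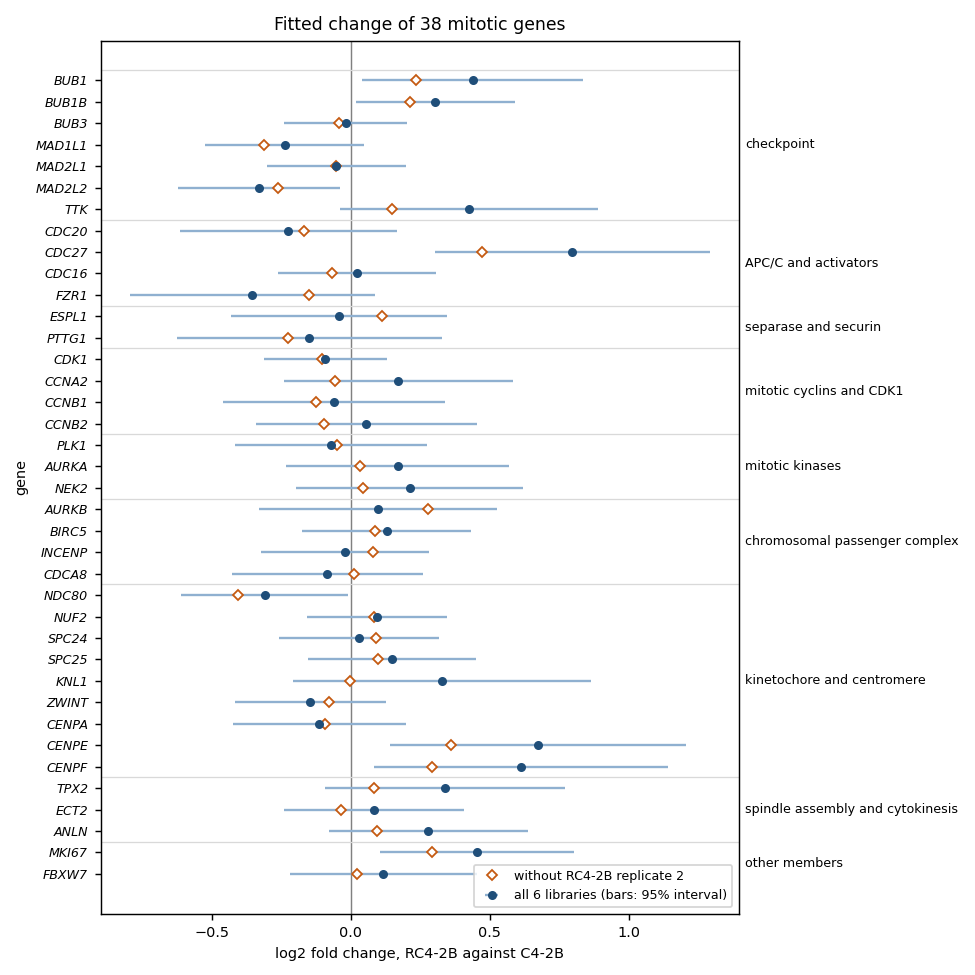
Fitted log2 fold change of each member, RC4-2B against C4-2B, by role. Filled points use all 6 libraries, with bars for the 95% interval, and open diamonds leave out RC4-2B replicate 2. Most intervals include 0, and CDC27, CENPE and CENPF, which have the largest positive values, move towards 0 without that library.

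Of the 7 members listed as spindle checkpoint genes, 0 were called with all libraries, beside 1.98% of all tested genes, so 0 calls in so few genes say little. BUB1B, also called BubR1, which binds CDC20 in the mitotic checkpoint complex, was at 93.0, 111 and 95.5 CPM in C4-2B replicates 1 to 3 and at 118, 138 and 114 CPM in RC4-2B replicates 1 to 3. The lines did not overlap, and the log2 fold change (given with its standard error, SE) was 0.30 (SE 0.13, adjusted p = 0.22 by edgeR's test) and 0.21 (adjusted p = 0.14) without RC4-2B replicate 2. MAD2L1, the MAD2 protein of the same complex, was at 106, 107 and 95.2 CPM in C4-2B replicates 1 to 3 and at 105, 99.3 and 92.8 CPM in RC4-2B replicates 1 to 3. The lines overlapped and the log2 fold change was -0.05 (SE 0.11, adjusted p = 0.78 by edgeR's test), with a 95% interval of -0.30 to 0.20, and -0.06 without that library.

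BUB1, the kinase that marks centromeres and recruits further checkpoint proteins, had a log2 fold change of 0.44 that came to 0.23 without RC4-2B replicate 2. TTK (MPS1), the kinase that starts checkpoint signalling at kinetochores, had 0.43 and then 0.15. BUB3, the adaptor that docks BUB1 and BubR1, had -0.02 and then -0.04. Of these 3 genes none passed edgeR's threshold with or without that library (adjusted p = 0.20, 0.26 and 0.92 with all libraries).

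MAD1L1, which brings MAD2 to unattached kinetochores, was at 32.2, 31.5 and 29.4 CPM in C4-2B replicates 1 to 3 and at 25.5, 28.9 and 24.4 CPM in RC4-2B replicates 1 to 3. All RC4-2B libraries were below all C4-2B libraries, and the log2 fold change came to -0.24 (SE 0.13, adjusted p = 0.29 by edgeR's test). MAD2L2 (REV7), a MAD2 relative that is also a subunit of the translesion DNA polymerase zeta, was at 66.5, 54.2 and 58.6 CPM in C4-2B replicates 1 to 3 and at 49.9, 42.8 and 49.8 CPM in RC4-2B replicates 1 to 3. Its lines did not overlap either, and the log2 fold change was -0.33 (SE 0.13, adjusted p = 0.20 by edgeR's test). After a correction for the GC content of the transcripts, described below with RC4-2B replicate 2, the value of MAD1L1 turned to 0.22 and that of MAD2L2 came to -0.08. Leaving out RC4-2B replicate 2, with no GC correction, gave -0.31 and -0.26.

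Among the APC/C genes, CDC27 had the largest fitted change of all members and the smallest adjusted p. CDC27 (ENSG00000004897, chr17:47117703-47189422 on the minus strand, GRCh38), a scaffold subunit that takes part in binding the activators, was at 97.5, 104 and 104 CPM in C4-2B replicates 1 to 3 and at 136, 248 and 147 CPM in RC4-2B replicates 1 to 3. All RC4-2B libraries exceeded all C4-2B libraries, and replicate 2 was far above the other RC4-2B libraries. The log2 fold change was 0.80 (SE 0.22, adjusted p = 0.10 by edgeR's test), which is a fold of 1.74 with a 95% interval of 1.23 to 2.45. Without RC4-2B replicate 2 it was 0.47, with an adjusted p of 0.0018 by edgeR's test, in a fit that called 6.50% of its genes higher. With the GC correction it was 0.56 (adjusted p = 0.024 by edgeR's test), where 4.36% of genes were called higher. CDC27 passed the threshold in 7 of the 18 alternative analyses, DESeq2 among them (log2 fold change 0.79, adjusted p = 0.018), and its adjusted p over all of them ran from 0.0013 to 0.38.

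CDC27 has processed pseudogenes elsewhere in the genome, and reads could be split between near-identical copies where the counting allowed it. The rows CDC27P1, CDC27P2 and CDC27P3 held at most 1 count in any library, and the 3 genes that overlap its span held at most 6. The 944 tested genes of chromosome 17, which carries CDC27, AURKB and BIRC5, had a median log2 fold change of 0.15, and 0.22 without RC4-2B replicate 2.

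CDC16, another scaffold subunit of the APC/C, had a log2 fold change of 0.02 (adjusted p = 0.93 by edgeR's test), and -0.07 without RC4-2B replicate 2. The ratio of CDC27 to CDC16 in FPKM was 1.45, 1.63 and 1.46 in the C4-2B libraries and 2.09, 3.23 and 2.29 in the RC4-2B libraries. This and the other ratios were chosen after the values had been seen. Over 9 ratios the smallest exact permutation p (two-sided) was 0.1, the smallest that 3 libraries against 3 allow, and 0.18 after Benjamini-Hochberg adjustment, so none passed a threshold.

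CDC20, the activator that the checkpoint holds back, was at 273, 269 and 219 CPM in C4-2B replicates 1 to 3 and at 273, 199.6 and 179 CPM in RC4-2B replicates 1 to 3. The first RC4-2B library was level with the highest C4-2B library and the other two were below all C4-2B libraries. The log2 fold change came to -0.23 (SE 0.17, adjusted p = 0.43 by edgeR's test), and -0.17 without RC4-2B replicate 2. FZR1 (CDH1), the activator that takes over from CDC20 late in mitosis and in G1, was at 64.4, 66.0 and 61.1 CPM in C4-2B replicates 1 to 3 and at 58.3, 34.6 and 56.8 CPM in RC4-2B replicates 1 to 3. The lines did not overlap, but the low mean came mostly from replicate 2. FZR1 had the most negative log2 fold change of the members, -0.36 (SE 0.19, adjusted p = 0.30 by edgeR's test), which was -0.15 without that library and turned to 0.05 with the GC correction.

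**Figure D3:**
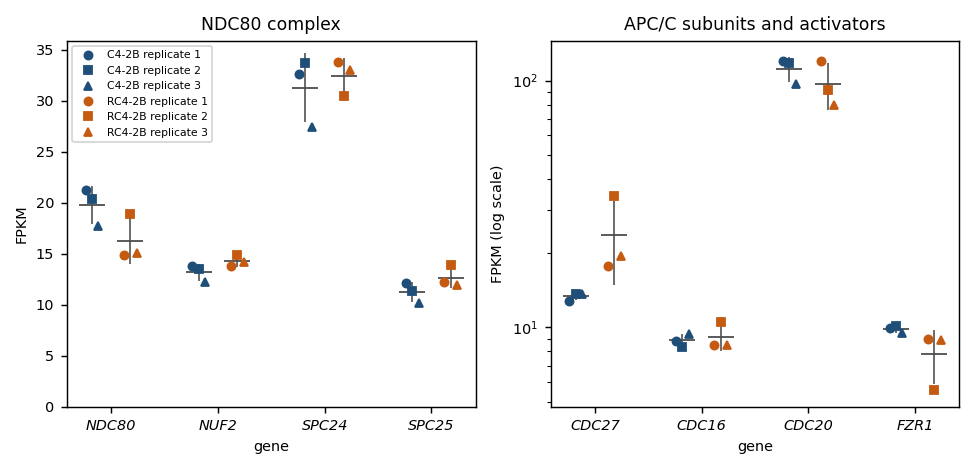
FPKM of the 4 subunits of the NDC80 complex (left, linear axis from 0) and of 2 APC/C subunits and 2 activators (right, log axis) in each library, with the mean and SD over 3 libraries of each line. CDC27 lies higher in all 3 RC4-2B libraries than in C4-2B, most of all in replicate 2, while CDC16 overlaps between the lines.

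Securin and separase overlapped between the lines. PTTG1, securin, the inhibitor of separase that the APC/C destroys, had a log2 fold change of -0.15 (-0.22 without RC4-2B replicate 2), and ESPL1, separase, had -0.04 (0.11), with adjusted p-values of 0.68 and 0.89 by edgeR's test. PTTG1 was at 102, 93.3 and 80.9 CPM in C4-2B replicates 1 to 3 and at 101, 91.2 and 56.6 CPM in RC4-2B replicates 1 to 3. RC4-2B replicate 3 was the lowest library by far, and the other two RC4-2B libraries lay within the C4-2B range.

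The CDK1 and cyclin genes gave 0 calls of 4 with all libraries, beside 1.98% of all tested genes. CCNB1, cyclin B1, the partner of CDK1 that drives entry into mitosis, was at 314, 323 and 274 CPM in C4-2B replicates 1 to 3 and at 343, 317 and 213 CPM in RC4-2B replicates 1 to 3. RC4-2B held both the highest and the lowest library, and the log2 fold change was -0.06 (SE 0.17, adjusted p = 0.85 by edgeR's test). The 95% interval of this difference ran from a fold of 0.727 to a fold of 1.27. CDK1 itself had a log2 fold change of -0.09, CCNB2 (cyclin B2) 0.06 and CCNA2 (cyclin A2, which acts in S phase and G2) 0.17. Without RC4-2B replicate 2 these were -0.10, -0.10 and -0.06, so both of these cyclins turned in sign, and CCNB1 came to -0.13. The adjusted p-values of these 3 genes were 0.58, 0.86 and 0.57 by edgeR's test.

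The mitotic kinases PLK1, AURKA and NEK2, which act at centrosomes and the spindle, had log2 fold changes of -0.07, 0.17 and 0.21. In the chromosomal passenger complex, which corrects wrong attachments and later guides cytokinesis, the kinase AURKB had 0.10, survivin (BIRC5) 0.13, the scaffold INCENP -0.02 and borealin (CDCA8) -0.08. With RC4-2B replicate 2 left out the 3 kinases had -0.05, 0.03 and 0.05, and AURKB, BIRC5, INCENP and CDCA8 had 0.28, 0.09, 0.08 and 0.01, with a change of sign for INCENP and CDCA8. The lines overlapped for all 7 genes, and the smallest adjusted p among them was 0.48 by edgeR's test with all libraries. For AURKB the overlap came through RC4-2B replicate 2 alone, and without that library its adjusted p was 0.097 by edgeR's test. AURKB passed the threshold in 1 of the 18 alternative analyses, the GC correction without RC4-2B replicate 2 (log2 fold change 0.31, adjusted p = 0.040 by edgeR's test). CDC27 and NDC80 passed in the same fit, whose many calls over all genes are given in the closing sections. Without the GC correction, the fit that leaves out this library called 12.5% of its genes.

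At the kinetochore, the subunits of the NDC80 complex, the main coupler to microtubules, had unlike values. NDC80 (HEC1; ENSG00000080986, chr18:2571511-2616635 on the plus strand, GRCh38) was at 85.3, 82.4 and 70.6 CPM in C4-2B replicates 1 to 3 and at 59.8, 72.5 and 59.9 CPM in RC4-2B replicates 1 to 3. RC4-2B replicates 1 and 3 were below every C4-2B library, and replicate 2 lay inside the C4-2B range. The log2 fold change was -0.31 (SE 0.13, adjusted p = 0.22 by edgeR's test). Without RC4-2B replicate 2 it was -0.41 (adjusted p = 0.014 by edgeR's test), where 6.02% of genes were called lower, and with the GC correction it was -0.50 (adjusted p = 0.019), where 3.25% were called lower. NDC80 passed the threshold in 4 of the 18 alternatives, and its adjusted p over all of them ran from 0.0037 to 0.54.

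NUF2, which forms a coiled-coil pair with NDC80, had a log2 fold change of 0.09, and SPC24 and SPC25, the pair at the inner end of the complex, had 0.03 and 0.15 (adjusted p = 0.61, 0.91 and 0.50 by edgeR's test). Leaving out RC4-2B replicate 2 gave 0.08, 0.09 and 0.10. The ratio of NDC80 to NUF2 in FPKM was 1.54, 1.51 and 1.45 in the C4-2B libraries and 1.08, 1.26 and 1.06 in the RC4-2B libraries. The ratio of NDC80 to SPC25 was 1.75, 1.80 and 1.74 in C4-2B, against 1.22, 1.36 and 1.27 in the RC4-2B libraries. That of NUF2 to SPC25 was 1.14, 1.19 and 1.20 in C4-2B, against 1.13, 1.08 and 1.19 in the RC4-2B libraries. The ratio of NDC80 to SPC24 was 0.649, 0.605 and 0.646 in C4-2B, against 0.440, 0.619 and 0.456 in the RC4-2B libraries. The ratios of NDC80 to NUF2 and to SPC25 were lower in every RC4-2B library, whereas that to SPC24 overlapped through RC4-2B replicate 2 and that of NUF2 to SPC25 overlapped as well. The 230 tested genes of chromosome 18, on which NDC80 is the only member, had a median log2 fold change of -0.18, and -0.28 without RC4-2B replicate 2.

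CENPE, the kinesin motor that carries chromosomes to the metaphase plate, was at 57.3, 80.5 and 71.8 CPM in C4-2B replicates 1 to 3 and at 89.2, 155 and 90.2 CPM in RC4-2B replicates 1 to 3. The lines did not overlap, and the log2 fold change was 0.67 (SE 0.23, adjusted p = 0.16 by edgeR's test), and 0.36 (adjusted p = 0.054) without RC4-2B replicate 2. CENPF, a large protein of the outer kinetochore, was at 151, 201 and 154 CPM in C4-2B replicates 1 to 3 and at 217, 360.4 and 197 CPM in RC4-2B replicates 1 to 3. RC4-2B replicate 3 lay below C4-2B replicate 2, and the log2 fold change was 0.61 (SE 0.23, adjusted p = 0.19 by edgeR's test), and 0.29 (adjusted p = 0.096) without RC4-2B replicate 2.

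KNL1, the platform on which BUB proteins gather, had a log2 fold change of 0.33 with all libraries and -0.0016 without RC4-2B replicate 2. ZWINT, which links KNL1 to the checkpoint machinery, had -0.15 (-0.08 without it), and CENPA, the histone variant that defines the centromere, had -0.11 (-0.09). None of these 3 genes passed edgeR's threshold (adjusted p = 0.41, 0.46 and 0.62).

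The spindle assembly factor TPX2 and the cytokinesis genes ECT2, an activator of RhoA, and ANLN, the contractile ring protein anillin, had log2 fold changes of 0.34, 0.08 and 0.28. Without RC4-2B replicate 2 these were 0.08, -0.04 and 0.09. Their adjusted p-values were 0.32, 0.74 and 0.32 by edgeR's test with all libraries.

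MKI67, the proliferation antigen Ki-67 that coats mitotic chromosomes, was at 187, 229 and 188 CPM in C4-2B replicates 1 to 3 and at 241, 334 and 251 CPM in RC4-2B replicates 1 to 3. The lines did not overlap, and the log2 fold change was 0.45 (SE 0.15, adjusted p = 0.16 by edgeR's test), and 0.29 (adjusted p = 0.052) without RC4-2B replicate 2. FBXW7, whose ligase is known to degrade cyclin E, MYC and the survival factor MCL1, was at 12.9, 13.6 and 13.0 CPM in C4-2B replicates 1 to 3 and at 12.9, 16.1 and 13.8 CPM in RC4-2B replicates 1 to 3. The lines overlapped, and the log2 fold change was 0.12 (SE 0.15, adjusted p = 0.64 by edgeR's test), with a 95% interval of -0.22 to 0.45. With the highest library, RC4-2B replicate 2, left out it was 0.02.

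**Figure D4:**
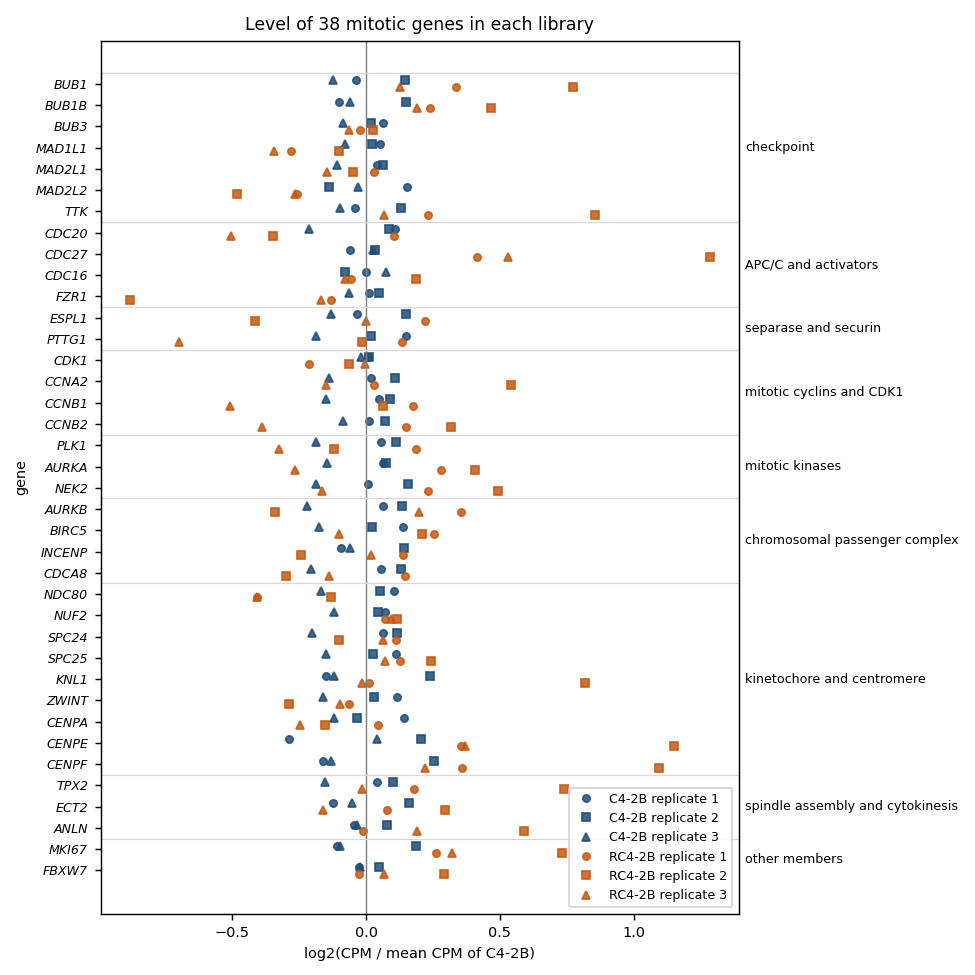
Level of each member in each library, as log2 of its TMM-scaled CPM over the C4-2B mean, by role; blue symbols are C4-2B and orange symbols RC4-2B, with circles, squares and triangles for replicates 1, 2 and 3. The squares of RC4-2B reach farthest to both sides, from FZR1 on the left to CDC27 on the right, and triangles tend to lie left of circles.

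Within each line most of the mitotic genes were lowest in replicate 3, while RC4-2B replicate 2 split them by GC content, as described below. Summed over the 38 members, the level was 4638, 4880 and 4234 CPM in C4-2B replicates 1 to 3 (4584 ± 326 CPM, SD, n = 3) and 4973, 5536 and 4361 CPM in RC4-2B replicates 1 to 3 (4957 ± 587 CPM), and the lines overlapped. In each line replicate 3 had the lowest sum and replicate 2 the highest. Replicate 3 was the lowest library of C4-2B for 26 of the 38 members and for 34.5% of all 9568 genes with a mean of at least 10 CPM, and the lowest library of RC4-2B for 22 of the 38 and for 19.7% of these genes.

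C4-2B replicate 3 was below the mean log2 CPM of C4-2B replicates 1 and 2 for 35 of the 38 members, with a median difference of -0.17, whereas 50.2% of all genes were below. RC4-2B replicate 3 was below RC4-2B replicate 1 for 30 of the 38, with a median of -0.13, and 46.2% of all genes were below. The most negative differences between these RC4-2B libraries were those of PTTG1 (-0.83), CCNB1 (-0.68), CDC20 (-0.61), AURKA (-0.54), CCNB2 (-0.53) and PLK1 (-0.51). Over the 38 genes these differences had a Spearman rho of 0.62 with the differences within C4-2B, against 0.29 over all 9568 genes. Their rho over the members was -0.34 with transcript GC content and 0.34 with transcript length (-0.40 and 0.30 over all 9568 genes). For the differences within C4-2B it was -0.35 and 0.50 (-0.24 and 0.40 over all 9568 genes). The genes of a library share its depth and composition, so this is a description of 5 libraries, with 1 contrast in each line. The counts and the rho of 0.62 reuse the values that showed replicate 3 lowest for most members, so they add no separate support. For CDC20, CCNB1 and PTTG1 the difference between RC4-2B replicates 3 and 1 was larger than the fitted difference between the lines.

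RC4-2B replicate 2 departed from the other RC4-2B libraries along transcript GC content. For members with a transcript GC content under 42% (16 genes), the median log2 difference between replicate 2 and the mean of replicates 1 and 3 was 0.40. It was 0.27 for the 11 genes from 42% to 50% and -0.22 for the 11 genes at 50% or more. The largest positive differences were those of KNL1 and CDC27 (both 0.81), CENPF (0.80) and CENPE (0.78), and the most negative were those of FZR1 (-0.73), AURKB (-0.61) and ESPL1 (-0.52). The Spearman rho with GC content was -0.64 over the 38 members and -0.74 over all 9568 genes, and with transcript length it was 0.36 and 0.31, descriptions over genes that share these libraries. The 3 members with the largest positive fold changes are among those with the largest values in this library, and their fits without it are given above.

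**Figure D5:**
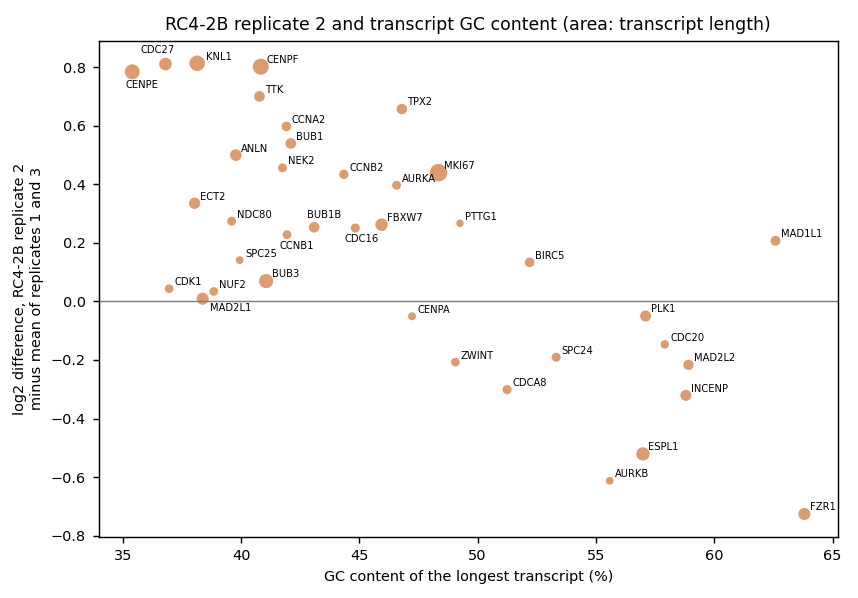
Log2 difference in CPM between RC4-2B replicate 2 and the mean of RC4-2B replicates 1 and 3 for each member, against the GC content of its longest transcript; point area grows with transcript length. GC-poor transcripts such as CENPE, CDC27 and KNL1 lie high and GC-rich ones such as FZR1 lie low.

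The GC correction used here smoothed each library's departure from the gene means over GC content and entered it into edgeR as an offset, so it also takes out any GC trend between the lines. It called CDC27 higher and NDC80 lower, and 7.62% of all tested genes. When it was fitted within each line instead, which keeps a GC trend between the lines, 7 members were called (BUB1, BUB1B, CDC27, CENPE, CENPF and MKI67 higher, FZR1 lower), beside 21.6% of genes. In the fit without RC4-2B replicate 2, 12.5% of all tested genes were called in either direction, and the 2 members CDC27 and NDC80. The median log2 fold change of the members was 0.02 without the library and 0.05 with the correction.

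A further 97 genes of the same pathway, all of them tested, gave 0 calls by edgeR's test with all libraries, beside 1.98% of all tested genes. Limma also called 0 of them, while DESeq2 called 2 lower (CENPN and NCAPG2), beside 5.93% of its genes. At an unadjusted p under 0.05 in edgeR's test, 11 of the 97 were higher and 3 lower in RC4-2B, beside 12.0% and 9.42% of all tested genes. Their lines did not overlap for 22 that were higher and 8 that were lower, beside 17.0% and 17.1% of all tested genes, and their median log2 fold change was 0.17. Without RC4-2B replicate 2 the median was 0.06, with 7 called higher (CENPI, NSL1, STAG1, MIS12, SKA2, KNTC1 and SEPTIN9) and 4 called lower (PKMYT1, NCAPG2, CENPN and ANAPC2), beside 6.50% and 6.02% of all genes in that fit. CENPN, the inner kinetochore protein that reads CENPA nucleosomes, came nearest to the threshold with all libraries. Its mean level went from 139 ± 4.62 to 87.7 ± 15.5 CPM (± SD over 3 libraries). The log2 fold change was -0.66 (adjusted p = 0.056 by edgeR's test), and -0.81 (adjusted p = 3.09e-05) without RC4-2B replicate 2.

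By list, with the smallest p in each direction taken from each, the condensin II subunit NCAPG2 went from 150.2 ± 12.2 to 107 ± 10.0 CPM, and its log2 fold change was -0.49 (adjusted p = 0.076 by edgeR's test), while the condensin I subunit NCAPG had 0.46 (adjusted p = 0.17). The kinetochore protein MIS12 had 0.36 (adjusted p = 0.12). In the list of other APC/C genes the largest subunit, ANAPC1, had 0.32 and the cullin subunit ANAPC2 had -0.53. In the list of checkpoint genes KNTC1, part of the complex that brings dynein and MAD1 to kinetochores, had 0.32, and MAD2L1BP, an inhibitor of MAD2 signalling, had -0.01. Among genes of mitotic entry LIN54, the subunit of the DREAM complex that binds the CHR, had 0.41 and CKS2, a CDK-binding protein, had -0.44. Among cytokinesis and centriole genes PLK4 had 0.40 and CHMP4B had -0.28. The values without RC4-2B replicate 2 were 0.12 for ANAPC1, -0.30 for ANAPC2, 0.23 for LIN54, -0.33 for CKS2, 0.27 for NCAPG, -0.57 for NCAPG2, 0.26 for PLK4 and -0.15 for CHMP4B, while KNTC1 and MIS12 came to 0.29 and 0.36, and MAD2L1BP turned to 0.11. The adjusted p-values of ANAPC1, ANAPC2, KNTC1, MAD2L1BP, LIN54, CKS2, PLK4 and CHMP4B lay at 0.15 or above by edgeR's test with all libraries.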

How the data were processed

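RNA was sequenced from 3 C4-2B and 3 RC4-2B samples, grouped by their labels. Per the labels and methods the authors used STAR to map the reads to GRCh38. The deposited counts (whole reads per gene, not normalized) and the deposited FPKM (per gene length and depth) cover 58735 genes. How reads were counted, whether by strand, and on which annotation is not given in the sources used here, so near-identical copies and the 20 members that overlap another gene carry that uncertainty. The study's methods name both 10% CSS and 10% FBS.

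Counts were analysed with edgeR 4.0.16 in R 4.3.3: TMM scaling, filterByExpr (minimum 10 counts, 15054 genes), glmQLFit and glmQLFTest, Benjamini-Hochberg adjustment over all tested genes, threshold 0.05. On simulated counts with 200 genes changed 4-fold, the fit recovered 200 and called 20 of 14647 unchanged genes. The simulation used a common dispersion and no outlying library, so it does not bear on smaller changes such as those of the members. CPM are TMM-scaled. Alternatives were DESeq2 1.42.0, limma 3.58.1 on log2 FPKM with a pseudocount of 1 or 0.1 (FPKM of 1 or more in 3 libraries), RLE and upper-quartile scaling, no filter, a minimum mean of 10 counts, a block for the replicate number, leaving out each library, and GC offsets. These came from lowess (span 0.2) on the GC content of the longest GENCODE release 44 transcript (99.6% of tested genes, 38 of 38 members), over all libraries or within each line. Ratios used FPKM.

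All members are reported. Values in every library are given for members called with all libraries or without RC4-2B replicate 2, for CDC20, CCNB1, FBXW7, MAD2L1, BUB1B and MKI67, and for the 3 largest fold changes in each direction. MAD1L1 and PTTG1 were added after their values were seen. Other pathway genes are named by the smallest p per list and direction, with those called without RC4-2B replicate 2 added later. The members and lists were chosen with earlier results of these data known. Each library counts as a replicate because the labels name it a biological replicate. Libraries of a line differed by more than sampling noise, but technical differences can give this too. Floors of 3 counts cover counting error only. Each SE was derived from edgeR's test, as the absolute log2 fold change over the square root of the F statistic. The 95% intervals are the estimate plus and minus this SE times the t quantile at the moderated degrees of freedom of the test. No author comparison columns were present.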

Additional observations from a re-analysis of the deposited data

How the results depend on the processing

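Limits apply as follows. With 3 libraries a line and 0 calls, real changes may have been missed. The intervals given are per gene and not adjusted, so they do not set a limit of detection. Members whose interval excluded 0, CDC27 among them, were not called with all libraries either. The count of calls depended on RC4-2B replicate 2. Over 18 alternatives the 38 members kept their direction and their side of the threshold in 608 values, passed it in 23 (9 genes) and changed sign in 53 (21 genes), while 17 genes never changed sign. The largest absolute log2 fold change of a gene that changed sign was 0.36 (FZR1).

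Members called higher, of 0 with all libraries, numbered 1 by DESeq2, 3 with no filter on low counts, 1 with the GC offset, 6 with the within-line GC offset, 4 with the GC offset and replicate block, and 2 with the GC offset without RC4-2B replicate 2. Members called lower numbered 1 in each of these GC fits. With a library left out they ranged from 0 to 1 in each direction. Other pathway genes called higher numbered 2 with no filter, 2 with the GC offset, 14 within lines, 3 with the GC offset and block and 3 with the GC offset without RC4-2B replicate 2. Those called lower numbered 2, 2, 8, 3 and 3 in these fits and 2 by DESeq2, and with a library left out 0 to 7 were higher and 0 to 4 lower. Their median log2 fold change was 0.0084 with the GC offset without RC4-2B replicate 2. Replication genes called numbered 2 with the within-line GC offset, and 0 to 1 with a library left out.

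Of all genes, 162 were called higher and 136 lower. The numbers were 500 and 402 by DESeq2, 604 and 646 with no filter, 657 and 490 with the GC offset, 1518 and 1727 with the within-line GC offset, 642 and 564 with the GC offset and replicate block, 46 and 58 by limma on log2(FPKM + 1), 39 and 47 on log2(FPKM + 0.1), and 1037 and 1013 with the GC offset without RC4-2B replicate 2. With a library left out they ranged from 13 to 1000 and from 31 to 925, the highest without RC4-2B replicate 2. The cause of these differences was not tested.

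The labels do not say whether the replicate numbers pair the samples, and the values did not settle it. Deviations of same-numbered samples correlated at 0.393, 0.22 and -0.0934, and not every sample correlated best with its own number. With the replicate number as a block, 55 genes were called higher and 74 lower and 0 members in either direction, and the median log2 fold change of the members was 0.05.

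Changes of sign, given as log2 fold changes, were these. With the GC offset they were MAD1L1 0.22, CDC16 -0.095, FZR1 0.050, ESPL1 0.11, CCNB2 -0.070, PLK1 0.11, INCENP 0.22, NUF2 -0.093, SPC25 -0.030 and ECT2 -0.12. With the GC offset and replicate block they were MAD1L1 0.15, CDC16 -0.094, FZR1 0.051, ESPL1 0.12, CCNB2 -0.090, PLK1 0.10, INCENP 0.22, NUF2 -0.10, SPC25 -0.027 and ECT2 -0.12. With the GC offset without RC4-2B replicate 2 they were CDC16 -0.12, ESPL1 0.16, CCNA2 -0.11, CCNB2 -0.15, AURKA -0.014, NEK2 -0.0069, INCENP 0.15, CDCA8 0.0044, KNL1 -0.076, ECT2 -0.11 and FBXW7 -0.028. By limma on log2(FPKM + 1) it was BUB3 0.0060. By limma on log2(FPKM + 0.1) it was BUB3 0.0063. Among the fits that leave out 1 library, 14 genes changed sign in at least 1, with these lowest and highest values: BUB3 -0.064 to 0.012, CDC16 -0.068 to 0.068, ESPL1 -0.19 to 0.11, PTTG1 -0.31 to 0.060, CCNA2 -0.057 to 0.31, CCNB1 -0.19 to 0.12, CCNB2 -0.10 to 0.23, PLK1 -0.22 to 0.037, AURKB -0.044 to 0.28, INCENP -0.10 to 0.079, CDCA8 -0.21 to 0.011, SPC24 -0.067 to 0.089, KNL1 -0.0016 to 0.47, ECT2 -0.036 to 0.19.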

Other observations

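For comparison, 17 genes of DNA replication, also chosen with earlier results known, had a median log2 fold change of -0.01. They had 0 calls by edgeR's test with all libraries, beside 1.98% of all tested genes, and 0 by DESeq2 and by limma. At an unadjusted p under 0.05 in edgeR's test 1 was higher and 1 lower, beside 12.0% and 9.42% of all tested genes. Their lines did not overlap for 1 gene in each direction, beside 17.0% and 17.1%, and 1 was called without RC4-2B replicate 2, beside 12.5%. RC4-2B replicate 1 alone was above the C4-2B mean for 28 of the 38 mitotic genes (median log2 difference 0.13). Of all 9568 genes with a mean of at least 10 CPM, 52.5% were below in that library. RC4-2B replicate 2 was above for 22 of the 38 (median 0.15), with 46.6% of these 9568 genes below. RC4-2B replicate 3 was below for 23 of the 38 (median -0.07), with 48.3% of them below. Of the rows named as pseudogenes of the members, 12 rows for 8 members, the highest count in any library was 6, in the row of CDC20P1.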
